A study of Mus musculus with 38 samples.

Results

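The comparison described here is that of tail skin from mice given ABX and from mice not given it, all without vitiligo induction. It takes 15 of the 38 libraries of the series, chosen by their labels alone: 6 named no_induction_ABX here (wild type, ABX treated, no induction) and 9 named no_induction (wild type, no induction, no ABX). ABX, a name commonly used for an antibiotic cocktail, is the treatment with which the series depleted gut microbes in its vitiligo mice. No measure of gut microbes in the uninduced mice was analysed here. Its agents, dose and duration, and the strain, age and sex of the mice, are not given in the labels. What the groups share is the tissue, the wild type label and the absence of induction. The series set out to ask how gut microbes act on skin in a vitiligo mouse model, and the uninduced pair compares skin with and without the treatment in mice that had no induction. Its other groups are mice with vitiligo induction, by means the labels do not give, without ABX (vitiligo, 9 libraries) and with it (vitiligo_ABX, 6), and wild type mice given hippuric acid (5) or its vehicle (3) intraperitoneally.

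Tail skin carries epidermal scales with sparse hair follicles between them, over a dermis that holds fibroblasts, vessels, nerves, mast cells and fat. Keratinocytes leave the basal layer and cornify, follicle cells fill with hair keratins and keratin-associated proteins, and adipocytes store lipid and secrete hormones. Type I interferons are cytokines that switch on antiviral genes through their receptor, and signals from gut microbes are known to influence their resting level in distant tissues.

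The markers of the labelled tissue were high: Krt5 and Krt14, the keratins of basal keratinocytes, stood at 2410 to 4410 and at 2150 to 4810 CPM over the 15 libraries, and Krt10, of the suprabasal layers, at 3640 to 17800 CPM. CPM here are counts divided by the library's total, scaled with TMM factors to a common size and expressed per 1000000 counts. Totals ran from 16873157 to 25956404 counts in no_induction and from 17308760 to 19797168 with ABX. Two-sided quasi-likelihood tests were run over 13971 genes, and 4351 of them (31.1%) had an adjusted p under 0.05 and are called changed here. Of all genes tested, 15.4% were called higher and 15.8% lower with ABX, and the median log2 change was -0.002. Every ABX library lay above every no_induction library in 3.0% of genes and below every one of them in 4.09%. The first principal component of the 15 libraries, with 44.3% of the variance, ran from 16.7 to 40.8 in ABX and from -31 to -1.6 in no_induction libraries. The labels name no cohort or batch, so a cohort and ABX cannot be told apart, and since they do not say whether each library is its own mouse, the p-values cover the library-to-library spread, which may be technical. Libraries 011 and 012 of no_induction held Y-linked transcripts (summed 227 and 197 CPM) and gastrointestinal ones (159 and 25.6 CPM). The gastrointestinal list summed to 3.19 to 6.62 CPM in the other 13 libraries, where Y-linked transcripts were at or near 0. Libraries 011 and 012 thus held male tissue, and the 2 groups were not matched for sex. Without libraries 011 and 012, 3832 genes were called. Blood transcripts summed to 441 to 2020 CPM with ABX and 296 to 5740 CPM without, and skeletal muscle transcripts to at most 15.4 CPM.

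**Figure D1:**
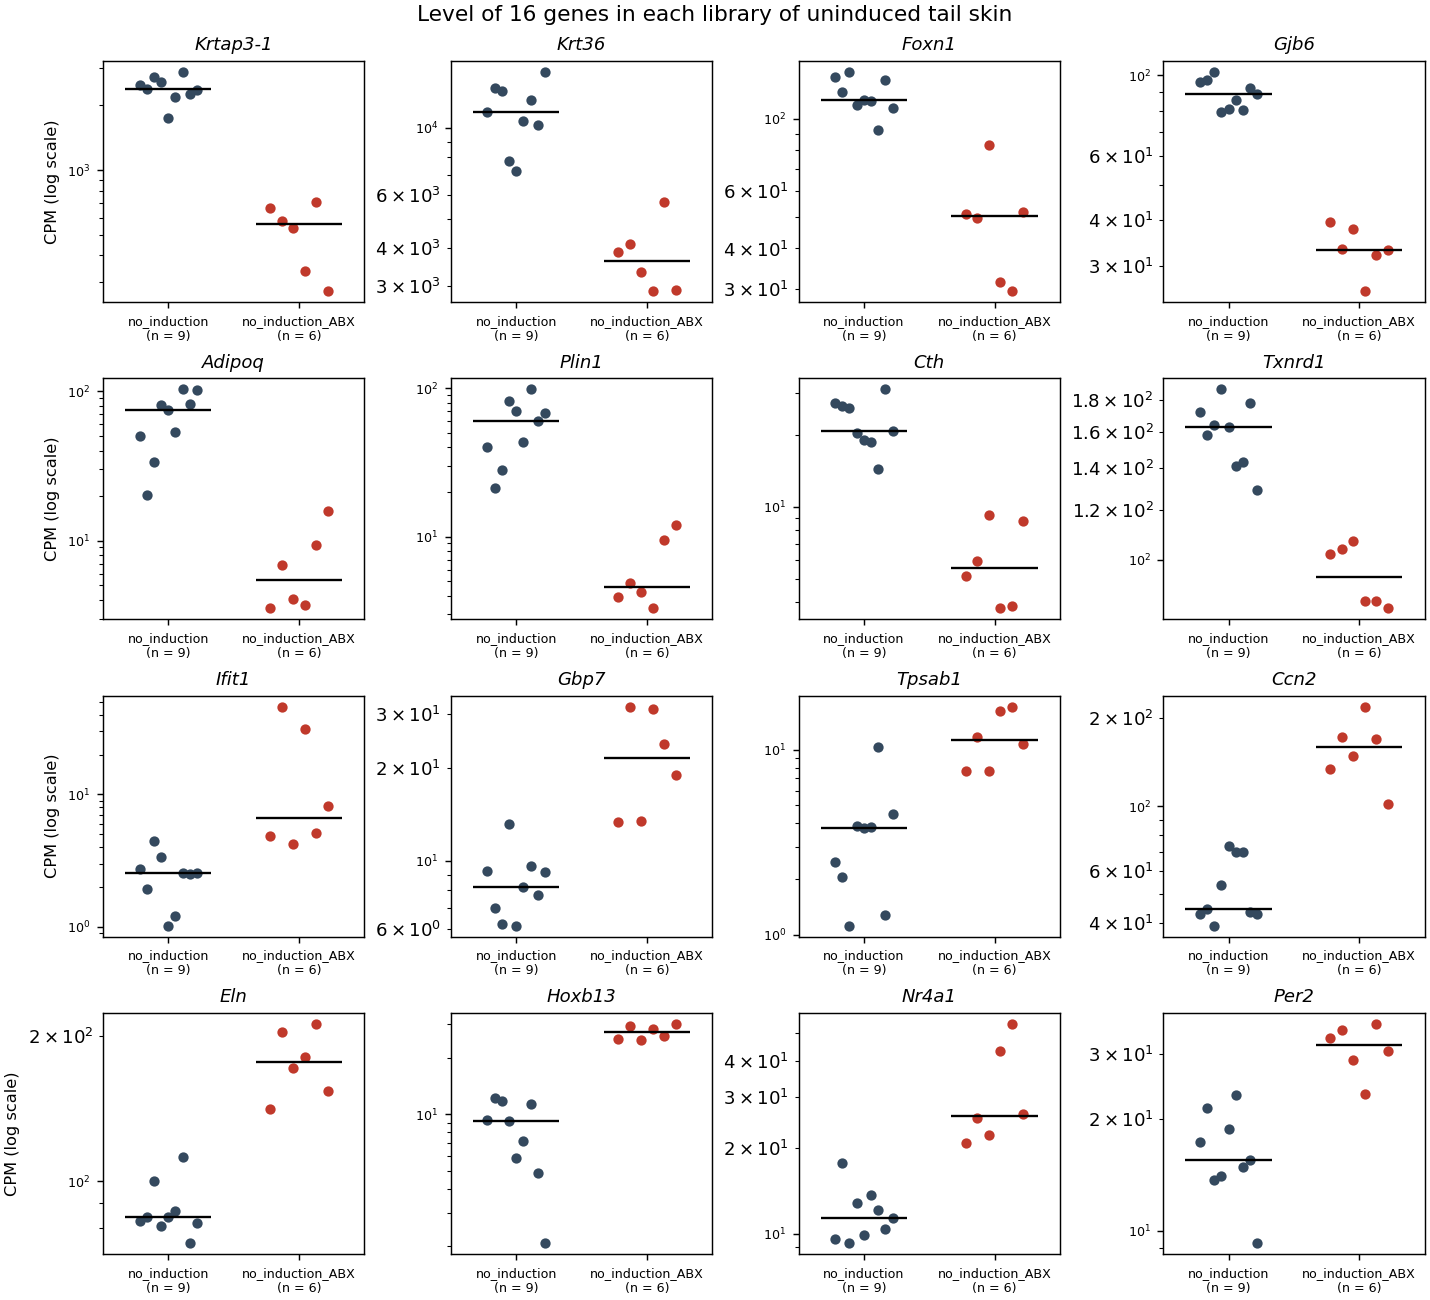
Level of 16 genes (CPM, log axis) in each of the 9 no_induction libraries (dark points) and 6 no_induction_ABX libraries (red points), with the group median as a bar. Krtap3-1, Krt36, Foxn1, Gjb6, Adipoq, Plin1, Cth and Txnrd1 lie lower in every ABX library, Gbp7, Ccn2, Eln, Hoxb13, Nr4a1 and Per2 lie higher in every one, and Ifit1 and Tpsab1 overlap.

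Genes of the hair shaft and its sheath were lower with ABX. All 14 hair keratins tested were called lower (median log2 change -1.34), as were 39 of 43 keratin-associated protein genes (median -1.58) and 14 of 14 genes of the inner root sheath (median -1.57), against 15.8% of all genes called lower. None of them was called higher. Summed hair keratins came to 8300 to 15100 CPM with ABX and to 26000 to 44300 CPM without. Much of this sum came from Krt36 and Krt84, whose levels are given below, so it says little about the other hair keratins. In bulk skin, fewer cells of a type and less RNA per cell cannot be told apart, here and in each list that follows. Every gene of the 3 lists that the table holds passed the filter on low counts. Krt85 was not analysed here.

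Krt36, used as a marker of the scale epidermis of the tail, stood at 7190 to 15300 CPM (median 11300) in no_induction libraries and at 2880 to 5680 CPM (median 3620) with ABX. It fell by 1.57 ± 0.20 log2 units (adjusted p = 4.13e-05), where ± is the standard error, and the groups did not overlap. Krt84, a further hard keratin, stood at 9720 to 18800 CPM (median 16000) without and 1480 to 7580 CPM (median 4620) with ABX. The groups stayed apart here too, and Krt84 fell by 1.72 ± 0.28 log2 units (adjusted p = 0.000335). Krt40 and Krt39, type I keratins of the hair shaft, fell by 2.29 ± 0.47 (adjusted p = 0.00246) and 1.92 ± 0.29 (adjusted p = 0.00026) on the log2 scale, each without overlap. Krt86 and Krt34, cortex keratins, overlapped between the groups. Krt86 stood at 353 to 1230 CPM without and 106 to 620 CPM with ABX and fell by 1.49 ± 0.36 log2 units (adjusted p = 0.00615). Krt34 fell by 1.3 ± 0.34 log2 units (adjusted p = 0.00992), a call that did not hold without ABX libraries 002 and 004 (-1.14, adjusted p = 0.0592).

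Keratin-associated proteins form the matrix that binds hair keratin filaments. Krtap3-1 stood at 1750 to 2860 CPM (median 2390) without ABX and 273 to 713 CPM (median 558) with it, and Krtap3-3 at 1570 to 2750 CPM (median 2330) and 344 to 738 CPM (median 597). The groups did not overlap in either. Krtap3-1 fell by 2.21 ± 0.20 log2 units (adjusted p = 2.24e-06) and Krtap3-3 by 2.01 ± 0.17 (adjusted p = 1.12e-06), and 18 of the 43 genes were below every no_induction library (background 4.09%). Krtap7-1 fell by 1.58 ± 0.17 log2 units (adjusted p = 1.26e-05). Members of this family are near-identical copies whose reads the counting may have split, so single genes are less certain than the family. With an offset for transcript length and GC content, chosen after the data were seen, 29 of the 43 were called lower.

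In the inner root sheath, the layer that moulds the growing hair, Krt71 stood at 1030 to 4290 CPM (median 2550) without ABX and 284 to 1730 CPM (median 785) with it. It fell by 1.66 ± 0.39 log2 units (adjusted p = 0.00507). Tchh, the sheath's trichohyalin, fell by 1.64 ± 0.37 log2 units (adjusted p = 0.0033), and Padi3, which deiminates such proteins, fell by 1.93 ± 0.41 log2 units (adjusted p = 0.00286). S100a3, a calcium-binding protein of the hair cuticle, and Gata3, a factor of sheath fate, fell by 1.54 ± 0.36 (adjusted p = 0.00451) and 0.48 ± 0.13 (adjusted p = 0.00882) on the log2 scale. All 5 genes kept some overlap between groups. Library 005 of ABX had the lowest hair keratin level (6.69 as mean log2(CPM + 1)), and library 003 the highest of its group (9.05), next to the lowest no_induction library (9.05). Without ABX libraries 002 and 004 together, with 4 libraries left in that group, 5 of 14 hair keratins and 8 of 14 sheath genes were called lower, and 28 of 43 keratin-associated proteins.

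Regulators of the follicle moved less as a group: 10 of 32 tested were called lower, 1 was called higher, and the median was -0.15. Foxn1, the factor that drives hair and keratinocyte differentiation, stood at 92.5 to 139 CPM (median 114) without ABX and 29.6 to 83.3 CPM (median 50.4) with it. Its groups did not overlap, and it fell by 1.25 ± 0.18 log2 units (adjusted p = 0.00014). Hoxc13, which activates hair keratin genes, fell by 1.02 ± 0.18 log2 units (adjusted p = 0.000524) with slight overlap. The Wnt ligands Wnt3 and Wnt10a and the differentiation factor Ovol1 were each below every no_induction library with ABX. Wnt3 stood at 20 to 29.2 CPM (median 26.4) without and 11.3 to 14.8 CPM (median 13.8) with ABX. It fell by 0.91 ± 0.10 log2 units (adjusted p = 8.42e-06), Wnt10a fell by 0.73 ± 0.12 (adjusted p = 0.000397) and Ovol1 by 0.84 ± 0.13 (adjusted p = 0.000185). Lef1, the transcription factor that Wnt signals act through, fell by 1.11 ± 0.33 log2 units (adjusted p = 0.02), a call that did not hold without ABX libraries 002 and 004 (-1.03, adjusted p = 0.093).

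The fall of hair genes differed from what ABX went with in induced mice. The vitiligo_ABX and vitiligo libraries share no library with the uninduced pair, and 13.1% of 14014 genes were called between them. There the median log2 change was 0.73 for hair keratins, 0.79 for keratin-associated proteins and 0.75 for the inner root sheath. Few of these genes were called there. Of 14 hair keratins 2 were called higher and 2 lower, of 43 keratin-associated proteins 9 and 2, and of 14 sheath genes 0 and 0. The interaction, the ABX difference without induction minus that with it, was called in 11.5% of 14310 genes. It was called negative in 11 of 14 hair keratins, 37 of 43 keratin-associated proteins, 13 of 14 sheath genes and 12 of 32 regulators, and positive in none of them. Foxn1 gave an interaction of -1.58 (adjusted p = 0.000398), and Krt86 -2.49 (adjusted p = 0.00192) with a change of 1.01 (adjusted p = 0.0323) in induced mice. The 2 keratins Krt36 and Krt84 did otherwise: with induction their changes were -1.27 (adjusted p = 0.0185) and -1.31 (adjusted p = 0.0418), and their interactions missed the threshold at -0.28 (adjusted p = 0.681) and -0.39 (adjusted p = 0.656). The levels differ in their starting points: the median hair keratin level was 9.80 in no_induction, 8.22 in no_induction_ABX, 9.33 in vitiligo and 9.76 in vitiligo_ABX, as mean log2(CPM + 1).

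**Figure D2:**
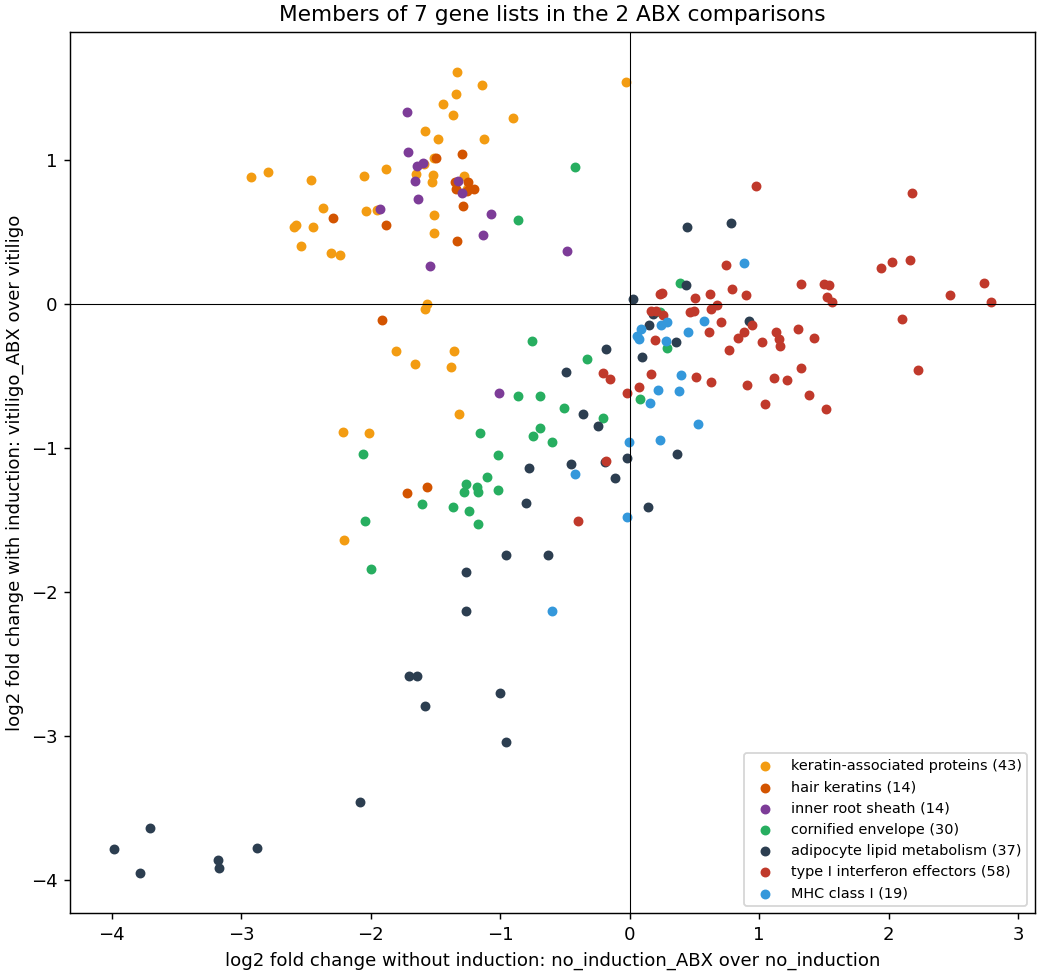
Log2 fold change of the members of 7 gene lists with ABX in uninduced mice (horizontal) and in induced mice (vertical), 1 point per gene, with the number of genes per list in the legend. Points at the upper left are genes below 0 without and above 0 with induction: 33 of 43 keratin-associated proteins, 11 of 14 hair keratins and 13 of 14 inner root sheath genes.

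Genes of late epidermal differentiation were lower in the fit of all 15 libraries, while basal genes were not. Of 30 cornified envelope genes tested, 18 were called lower (median -0.94) and none higher. Of 34 enzymes of cornification and barrier lipids, 16 were called lower (median -0.38) and none higher, and of 12 suprabasal genes 8 were lower (median -0.53), or 5 without no_induction libraries 011 and 012 and 4 without ABX libraries 002 and 004. In the basal layer 2 of 16 were called higher, none lower, and the median was 0.01. Krt5 had a difference of -0.18 ± 0.14 (adjusted p = 0.333), and Itgb1, the integrin beta chain that anchors basal cells, rose by 0.43 ± 0.09 log2 units (adjusted p = 0.00189). Cell cycle genes gave 1 of 40 called higher and none lower.

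Sprr2a1, a proline-rich protein of the cornified envelope, stood at 27.1 to 45 CPM (median 38) without ABX and at 4.51 to 11.4 CPM (median 10.2) with it. It fell by 2.06 ± 0.19 log2 units (adjusted p = 3.62e-06) with no overlap, although its family shares reads. Lce1l, a late envelope protein, fell by 1.37 ± 0.17 log2 units (adjusted p = 4.58e-05) and also lay below every no_induction library. Lor, the envelope's main protein, fell by 1.18 ± 0.34 log2 units (adjusted p = 0.0156) with overlapping groups, and Krt10, the suprabasal keratin, fell by 0.66 ± 0.20 log2 units (adjusted p = 0.0209). Neither held without ABX libraries 002 and 004 (Lor -1.25, adjusted p = 0.0513; Krt10 -0.69, adjusted p = 0.0668). Without no_induction libraries 011 and 012 Lor fell by 0.65 (adjusted p = 0.013) and Krt10 by 0.48 (adjusted p = 0.0497). Calml3, a calmodulin-like protein of differentiating cells, fell by 0.69 ± 0.14 log2 units (adjusted p = 0.00145) and its groups did not overlap.

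Among the enzymes, the transglutaminase Tgm1, which cross-links the envelope, stood at 140 to 206 CPM (median 173) without ABX and 63.8 to 108 CPM (median 91.6) with it. Its groups did not overlap, and it fell by 0.94 ± 0.11 log2 units (adjusted p = 2.69e-05). Tgm3, its counterpart in hair and envelope, fell by 1.13 ± 0.17 log2 units (adjusted p = 0.000155) with slight overlap. Alox12b, a lipoxygenase of the barrier lipid path, Klk11, a desquamation protease, and Cers3, a ceramide synthase, fell by 1.18 ± 0.18 (adjusted p = 0.000191), 1.13 ± 0.18 (adjusted p = 0.000327) and 0.58 ± 0.10 (adjusted p = 0.000462) on the log2 scale. These 3 were below every no_induction library with ABX, as were 11 of the 34 enzymes (background 4.09%).

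Gjb6, the gap junction protein connexin 30, had the smallest adjusted p of the named genes. Its level was 79.5 to 102 CPM (median 89) without ABX and 25.6 to 39.6 CPM (median 33.2) with it. No library of one group reached the range of the other, and Gjb6 fell by 1.41 ± 0.09 log2 units (adjusted p = 1.39e-07). In induced mice its change was -0.22 (adjusted p = 0.29), and the interaction was -1.17 (adjusted p = 0.000309). Psors1c2, an epidermal differentiation gene, and Hephl1, a copper-dependent oxidase of the follicle, had interactions of -1.92 (adjusted p = 0.000398) and -1.45 (adjusted p = 0.000398). They fell by 1.60 ± 0.22 (adjusted p = 9.48e-05) and 1.17 ± 0.14 (adjusted p = 3.61e-05) on the log2 scale without induction. Gdpd5, a phosphodiesterase of membrane lipids, fell by 0.84 ± 0.10 log2 units (adjusted p = 2.9e-05) and had an interaction of -1.10 (adjusted p = 0.000309). Induced mice gave the envelope and suprabasal lists the same direction with ABX, with 16 of 30 and 6 of 12 called lower (medians -0.94 and -0.54).

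**Figure D3:**
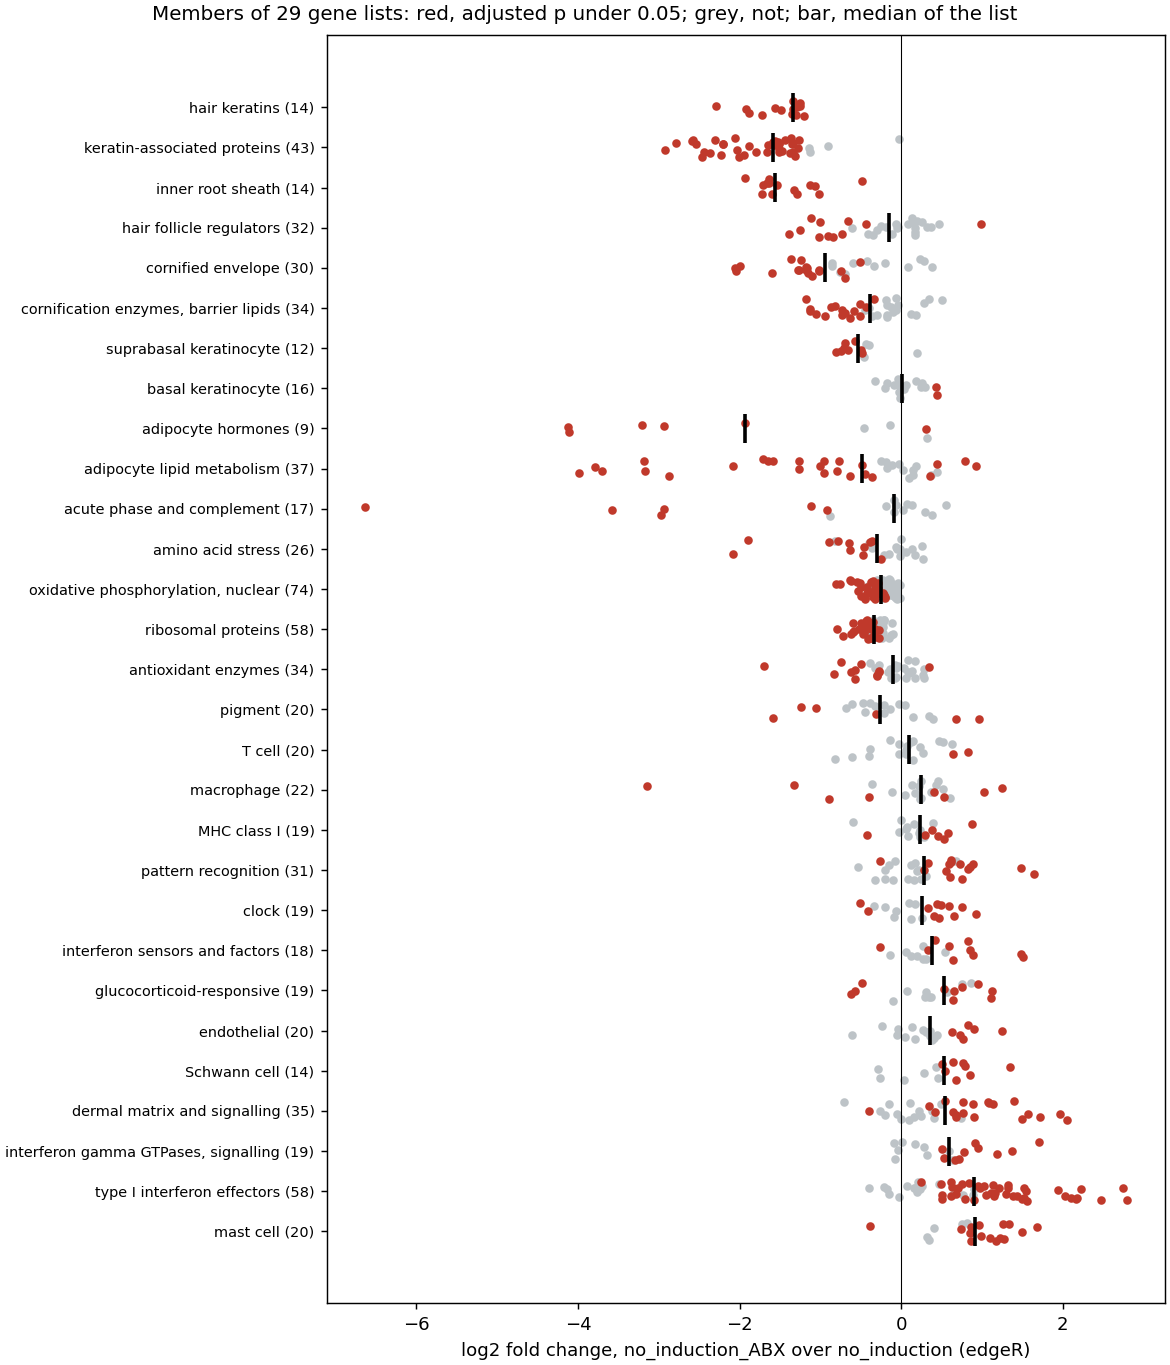
Log2 fold change with ABX in uninduced mice for the tested members of 29 gene lists (number in parentheses), 1 point per gene, red where called and grey where not, with the list median as a bar. Hair, envelope and adipocyte lists lie left of 0 (medians -1.34, -0.94 and -1.93 for hair keratins, cornified envelope and adipocyte hormones), and interferon and mast cell lists right of it (0.90 and 0.91).

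Fat genes were lower as well. Of 9 adipocyte hormones and secreted factors tested 5 were called lower and 1 higher (median -1.93), and of 37 genes of adipocyte lipid metabolism 21 were called lower and 4 higher (median -0.49). In the lipid list 14 genes lay below every no_induction library with ABX (background 4.09%). The number higher was 1 or 2 without ABX library 001, 002, 003, 004 or 005, or no_induction library 002 or 011. Adipoq, adiponectin, stood at 20.3 to 103 CPM (median 74.9) without ABX and 3.51 to 15.8 CPM (median 5.46) with it. Retn, resistin, stood at 7.95 to 62.6 CPM (median 31.8) without and 0.937 to 5.07 CPM (median 1.37) with it. The groups did not overlap in either, and Adipoq fell by 3.21 ± 0.44 log2 units (adjusted p = 0.00015) and Retn by 4.11 ± 0.54 (adjusted p = 0.000103). Lep, leptin, reached at most 0.518 CPM with ABX and ran from 0.602 to 11.1 CPM without. It fell by 4.13 ± 0.66 log2 units (adjusted p = 0.00031). Cfd, adipsin, fell by 2.94 ± 0.47 log2 units (adjusted p = 0.00043), and Rbp4, the retinol carrier, fell by 1.93 ± 0.38 log2 units (adjusted p = 0.00132).

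Among lipid genes, Plin1, the coat protein of the large fat droplet, stood at 21.2 to 98.5 CPM (median 60.6) without ABX and 3.28 to 12 CPM (median 4.55) with it. It fell by 3.18 ± 0.40 log2 units (adjusted p = 7.95e-05). Cidec, which fuses droplets, and Lipe, the hormone-sensitive lipase, fell by 3.18 ± 0.42 (adjusted p = 9.65e-05) and 1.71 ± 0.21 (adjusted p = 4.58e-05) on the log2 scale. Both were below every no_induction library. Pck1, an enzyme of glycerol synthesis, Thrsp, a regulator of fat synthesis, Mrap, a melanocortin receptor accessory protein, and Tshr, the thyrotropin receptor, fell by 3.71, 3.78, 3.98 and 2.88 (log2), with adjusted p between 5.64e-05 and 0.000713. Fabp4, the fatty acid carrier of adipocytes and capillaries, fell by 1.26 ± 0.25 log2 units (adjusted p = 0.0016), while Pparg, the master factor of fat, had a difference of -0.02 ± 0.10 (adjusted p = 0.877) with overlapping groups. Pparg changed by -1.07 (adjusted p = 0.00053) with ABX in induced mice, and its interaction was 1.06 (adjusted p = 0.00103). Rbp4 changed by -3.68 (adjusted p = 2.59e-05) in induced mice, and its interaction was 1.77 (adjusted p = 0.0393).

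Some of the largest falls were proteins of plasma type. C7, a terminal complement component, ran from 0.361 to 120 CPM without ABX and reached 0.64 CPM with it. It fell by 6.63 ± 1.49 log2 units (adjusted p = 0.00402), or by 5.96 without no_induction library 012 and by 4.35 without 011 and 012 (adjusted p = 0.00154), and its groups overlapped. Saa1, serum amyloid A, stood at 6.19 to 45.3 CPM (median 12.1) without ABX and 0.377 to 2.8 CPM (median 1.18) with it, with no overlap, and fell by 3.58 ± 0.49 log2 units (adjusted p = 0.000132). Hp, haptoglobin, fell by 2.97 ± 0.50 log2 units (adjusted p = 0.000551), and C3, the central complement protein, fell by 1.11 ± 0.19 log2 units (adjusted p = 0.000475). Of 17 acute phase and complement genes tested 6 were called lower and none higher. Mup18, a major urinary protein, fell by 3.64 ± 0.76 log2 units (adjusted p = 0.00252), or by 4.59 without ABX library 006. Its family shares reads. Cyp2e1, an ethanol- and ketone-oxidising P450, fell by 4.52 ± 0.96 log2 units (adjusted p = 0.00278), or by 5.68 without that library, which held 8.70 CPM against at most 1.72 in the other 5. Without no_induction libraries 011 and 012 Cyp2e1 fell by 3.31 (adjusted p = 0.00462).

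Interferon genes rose. Of 58 type I interferon effector genes tested 41 were called higher and none lower (median 0.90, against 15.4% of all genes called higher). Of 18 sensors and factors upstream 9 were called higher and 1 lower, of 10 negative regulators 3 were higher and 1 lower, and of 19 interferon gamma GTPases and signalling genes 10 were higher and none lower. The rise was uneven among the ABX libraries: 36 of the 41 genes had their highest level of all 15 libraries in ABX library 002 and 4 in library 004. The list level was 4.23 and 4.06 in these libraries, 3.09 to 3.41 in the other 4, and 2.68 to 3.13 in no_induction. Without both libraries 21 of the effectors, 3 of the sensors and 3 of the interferon gamma genes were called higher.

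The promoters of 4 of these genes are shown because the interferon results turn on them and because each holds the core of the interferon-stimulated response element, the site through which interferon acts on its target genes. The motif searched was GAAA, any 2 bases and GAAA again, on either strand, so that on the other strand both copies read TTTC. Each line gives the 250 bases before the start site, 5′ to 3′ on the gene's strand, from RefSeq on GRCm38.p6, with the motif in capitals. Adjoining or overlapping matches make 1 capital run.
Ifit1 (chr19:34640639-34640888, plus strand): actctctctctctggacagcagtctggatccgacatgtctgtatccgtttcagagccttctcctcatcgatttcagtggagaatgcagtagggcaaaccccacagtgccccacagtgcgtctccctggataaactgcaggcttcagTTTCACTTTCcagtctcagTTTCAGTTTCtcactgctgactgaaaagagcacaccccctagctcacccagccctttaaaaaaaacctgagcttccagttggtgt
Ifit3 (chr19:34583279-34583528, plus strand): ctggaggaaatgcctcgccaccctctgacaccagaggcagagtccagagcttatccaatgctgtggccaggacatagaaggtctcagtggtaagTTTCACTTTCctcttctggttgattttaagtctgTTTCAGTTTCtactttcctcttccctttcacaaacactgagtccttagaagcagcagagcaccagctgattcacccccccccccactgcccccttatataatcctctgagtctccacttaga
Oas3 (chr5:120777660-120777909, minus strand): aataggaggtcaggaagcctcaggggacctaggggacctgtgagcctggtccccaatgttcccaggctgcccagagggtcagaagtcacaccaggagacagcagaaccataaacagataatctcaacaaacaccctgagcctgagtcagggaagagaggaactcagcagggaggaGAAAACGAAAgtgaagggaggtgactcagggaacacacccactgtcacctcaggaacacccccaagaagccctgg
Isg15 (chr4:156200819-156201068, minus strand): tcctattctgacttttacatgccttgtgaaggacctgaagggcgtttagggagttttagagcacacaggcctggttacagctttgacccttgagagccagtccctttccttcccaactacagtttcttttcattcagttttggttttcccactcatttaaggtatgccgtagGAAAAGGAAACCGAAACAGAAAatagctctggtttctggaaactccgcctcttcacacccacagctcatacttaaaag
The match nearest the start site ends 76 bases before it in Ifit1, 113 in Ifit3, 66 in Oas3 and 57 in Isg15. Of the 41 effectors called higher 35 had a promoter in the table, and 19 of these (54.3%) held the motif in the 300 bases from 250 before to 50 after the start. Of 14 effectors not called 6 held it. The motif was in 3.44% of all 32851 promoters and in 3.80% of the tested genes with a promoter. A match describes the letters and shows no binding, and the list was drawn up from genes known to respond to interferon.

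Ifit1, an antiviral protein that binds foreign RNA, ran from 1.02 to 4.44 CPM without ABX. With ABX it stood at 46.1 CPM in library 002, 31.5 in library 004 and 4.25 to 8.23 in the other 4, so that the groups overlapped slightly. It rose by 2.74 ± 0.53 log2 units (adjusted p = 0.00158), by 2.11 without library 002 (adjusted p = 0.00382) and by 1.17 without 002 and 004 (adjusted p = 0.014). Ifit3, its partner, stood at 5.58 to 16.2 CPM without ABX, at 121 and 92.8 CPM in the same 2 libraries and at 14.5 to 26.9 CPM in the other 4. It rose by 2.48 ± 0.47 log2 units (adjusted p = 0.00144), and its reads may mix with Ifit3b. Oas3, which makes the second messenger of RNase L, rose by 2.23 ± 0.46 log2 units (adjusted p = 0.00179). Oasl2, a relative of it, stood at 1.82 to 4.79 CPM (median 2.83) without and 5.01 to 27.6 CPM (median 7.09) with ABX, did not overlap, and rose by 2.02 ± 0.38 log2 units (adjusted p = 0.00102). Isg15, the ubiquitin-like modifier, and Usp18, which removes it, rose by 1.52 ± 0.36 (adjusted p = 0.00482) and 1.70 ± 0.41 (adjusted p = 0.00533) on the log2 scale. Both missed the threshold without libraries 002 and 004 (0.53, adjusted p = 0.133; 0.60, adjusted p = 0.153). Without them Ifit3 rose by 1.10 (adjusted p = 0.00707), Oas3 by 0.88 (adjusted p = 0.0407) and Oasl2 by 0.99 (adjusted p = 0.00975).

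Apol9a, a lipid-binding protein with the near copy Apol9b, rose by 2.79 ± 0.61 log2 units (adjusted p = 0.00283), or by 2.08 without library 004 (adjusted p = 0.00984). Ifi44, an interferon-induced gene of antiviral states, rose by 2.10 ± 0.51 log2 units (adjusted p = 0.00499). Without libraries 002 and 004 the differences of Apol9a and Ifi44 were 0.78 (adjusted p = 0.105) and 1.24 (adjusted p = 0.100). Ddx60, a helicase that aids RNA sensing, stood at 2.61 to 8.32 CPM (median 4.33) without ABX and 8.81 to 19.3 CPM (median 9.61) with it, with no overlap, and rose by 1.32 ± 0.24 log2 units (adjusted p = 0.000637). Parp14, an ADP-ribosyltransferase, rose by 0.90 ± 0.16 log2 units (adjusted p = 0.000655), also without overlap. Samd9l, an antiviral translation inhibitor, and Ifitm1, a membrane protein that blocks viral entry, rose by 1.16 ± 0.20 (adjusted p = 0.000464) and 0.98 ± 0.17 (adjusted p = 0.000513), and without libraries 002 and 004 their differences were 0.92 (adjusted p = 0.00807) and 1.03 (adjusted p = 0.0026).

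Upstream, Ifnar1, a chain of the type I interferon receptor, stood at 42.7 to 61.7 CPM (median 50) without ABX and 64 to 78.1 CPM (median 70) with it. The groups did not overlap, and Ifnar1 rose by 0.42 ± 0.08 log2 units (adjusted p = 0.00135). Ifih1, the sensor MDA5, and Irf7, the factor that amplifies interferon production, rose by 0.82 ± 0.17 (adjusted p = 0.00168) and 1.5 ± 0.32 (adjusted p = 0.00241) on the log2 scale, and Irf7 by 0.73 without libraries 002 and 004 (adjusted p = 0.0217). Rigi, the RNA sensor RIG-I, and Zbp1, a sensor of Z-form nucleic acid, rose by 0.59 ± 0.16 (adjusted p = 0.0092) and 1.49 ± 0.33 (adjusted p = 0.00312), and missed the threshold without libraries 002 and 004 (0.26, adjusted p = 0.114; 0.84, adjusted p = 0.063). Of the interferon ligands, Ifnb1 was at 0 in all 15 libraries, Ifnk at most at 0.0512 CPM and Ifng at most at 0.121 CPM, and none passed the filter.

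Among the GTPases that interferon gamma also induces, Gbp7 stood at 6.15 to 13.1 CPM (median 8.2) without ABX and 13.3 to 31.6 CPM (median 21.5) with it, and Gbp3 at 4.1 to 9.23 CPM (median 7.08) and 12 to 38 CPM (median 16.6). Neither overlapped, and they rose by 1.37 ± 0.21 (adjusted p = 0.000184) and 1.70 ± 0.27 (adjusted p = 0.000286) on the log2 scale, and Gbp3 by 1.10 without libraries 002 and 004 (adjusted p = 0.00271). Gbp2 rose by 0.95 ± 0.20 log2 units (adjusted p = 0.00183). Cxcl10, a chemokine of the same response, had a difference of 0.28 ± 0.42 (adjusted p = 0.648), and Cxcl9 did not pass the filter. In antigen presentation 6 of 19 class I genes were called higher and 1 lower, and 1 of 9 class II genes was called higher. Leaving out ABX library 002 left 3 class I genes called higher, and the length and GC offset gave 11. Tapbp, which loads peptides, stood at 93.3 to 126 CPM (median 109) without and 141 to 177 CPM (median 146) with ABX, did not overlap, and rose by 0.45 ± 0.08 log2 units (adjusted p = 0.000466). H2-T23, a non-classical class I molecule whose family shares reads, rose by 0.58 ± 0.10 log2 units (adjusted p = 0.00054). B2m, the class I light chain, had a difference of 0.23 ± 0.10 (adjusted p = 0.0929), which passed without ABX library 003 (0.29, adjusted p = 0.0481), no_induction library 012 (0.28, adjusted p = 0.0326), or with the length and GC offset (0.50, adjusted p = 0.000577).

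Induced mice did not show this rise with ABX, where 1 of the 58 effectors was called higher and 4 lower (median -0.14). The interaction was called positive in 25 of the 58 and negative in none. For Ifit1 it was 2.61 (adjusted p = 0.0226) and for Gbp7 1.5 (adjusted p = 0.00556), with induced changes of 0.15 (adjusted p = 0.865) and -0.11 (adjusted p = 0.807). The median level of the effector list was 2.83 in no_induction, 3.36 in no_induction_ABX, 3.43 in vitiligo and 3.38 in vitiligo_ABX. Among the 19 class I genes the interaction was called positive in 12 and negative in none. Their median change with ABX was 0.23 without induction and -0.49 with it, where 9 were called lower and none higher.

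**Figure D4:**
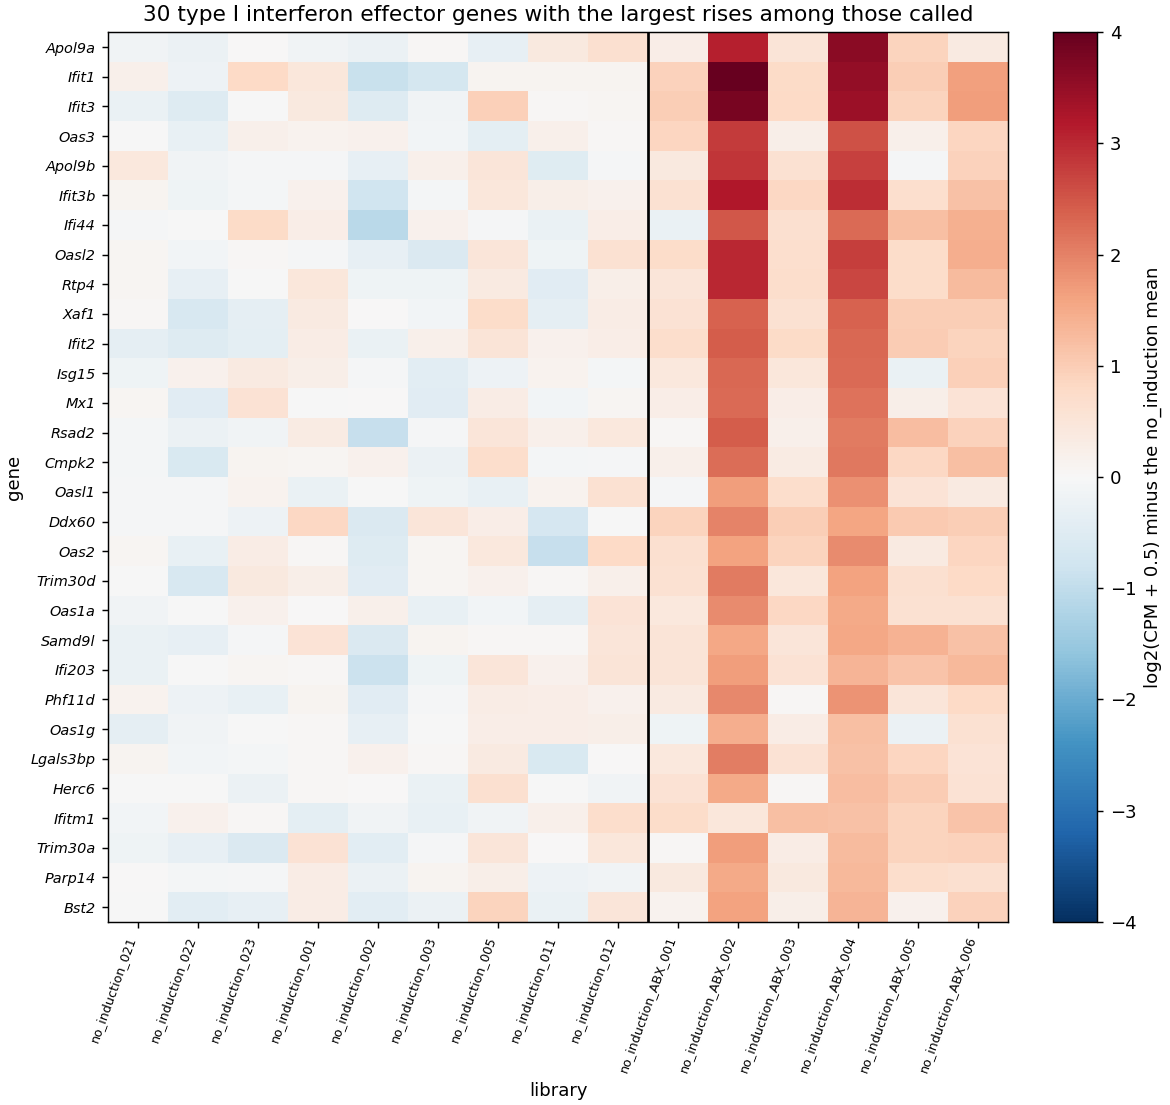
The 30 type I interferon effectors with the largest rises among those called (rows) in the 15 libraries (columns, the 6 ABX libraries right of the line), as log2(CPM + 0.5) minus the mean of the 9 no_induction libraries. ABX libraries 002 and 004 are the deepest red, with Ifit1 at 46.1 and 31.5 CPM, and the other 4 are paler.

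Of 20 mast cell genes tested 14 were called higher and 1 lower (median 0.91), although none lay above every no_induction library in all ABX libraries. The summed list ran from 1020 to 1630 CPM with ABX and from 419 to 1320 CPM without. Tpsab1, a tryptase of mast cell granules, stood at 1.12 to 10.4 CPM (median 3.79) without ABX and 7.68 to 17.1 CPM (median 11.3) with it, and rose by 1.68 ± 0.37 log2 units (adjusted p = 0.00329). Cma1, the chymase, stood at 50.6 to 249 CPM (median 109) without and 219 to 296 CPM (median 230) with ABX, and rose by 1.17 ± 0.29 log2 units (adjusted p = 0.0072). Slc18a2, which loads amines into granules, Il1rl1, the receptor of interleukin 33, and Gata2, a mast cell factor, rose by 1.22 ± 0.24 (adjusted p = 0.00124), 1.49 ± 0.31 (adjusted p = 0.00211) and 1.10 ± 0.24 (adjusted p = 0.0031) on the log2 scale. Cpa3, the granule carboxypeptidase, and Tpsb2, a second tryptase, rose by 0.97 ± 0.28 (adjusted p = 0.0172) and 0.85 ± 0.25 (adjusted p = 0.0175). The mean log2(CPM + 1) of the list was 4.23 to 4.96 with ABX. Without ABX it was 3.14 to 3.41 in libraries 011, 021, 022 and 023, 3.83 in library 012 and 3.78 to 4.52 in libraries 001, 002, 003 and 005. On the 8 libraries numbered 001, 002, 003 and 005 in either group, edgeR called none of the 20, and 9 were higher at an unadjusted p under 0.05 (median 0.55). There Tpsab1 had a difference of 1.02 (adjusted p = 0.139) and Cma1 of 0.68 (adjusted p = 0.127). With induction 3 of the 20 were called higher with ABX and 1 lower (median 0.58).

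Macrophage, T cell and B cell lists follow, to be read beside the 15.4% of all genes called higher and 15.8% called lower. Of 22 macrophage genes 4 were called higher and 4 lower. The number called higher was 2 without ABX library 001, 002 or 005, or no_induction library 002, 011 or 021, and 9 without no_induction library 005. It was 1 without ABX libraries 002 and 004 together and 13 with limma-voom. Lyve1, a hyaluronan receptor of lymphatics and vessel-side macrophages, rose by 1.25 ± 0.28 log2 units (adjusted p = 0.00375). Cd209f, a lectin of resident macrophages, fell by 1.33 ± 0.31 log2 units (adjusted p = 0.00413). Ccl8, a chemokine they secrete, fell by 0.90 ± 0.21 log2 units (adjusted p = 0.00456), though not with the length and GC offset (-0.21, adjusted p = 0.474). T cell genes gave 2 of 20 called higher and none lower. Itgae, the integrin of T cells lodged in epidermis, rose by 0.64 ± 0.16 log2 units (adjusted p = 0.00769), Cd3e had a difference of 0.27 ± 0.31 (adjusted p = 0.527) at no more than 1.45 CPM, and Cd8a, at most 0.373 CPM, did not pass the filter. In the B cell list all 7 genes tested had differences below 0 (median -1.05), 2 were called lower and none higher. Without no_induction libraries 011 and 012 5 genes of the list were tested, with a median of -0.55. Among those called was Prdm1, a factor that keratinocytes also use, at -0.55 ± 0.11 (adjusted p = 0.00145).

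Of 31 receptors for microbial molecules 14 were called higher, against 15.4% of all genes, and 1 lower. Without ABX libraries 002 and 004 the number higher was 5. Tlr2, the receptor of bacterial lipoproteins, rose by 0.62 ± 0.18 log2 units (adjusted p = 0.0159), and missed the threshold without those libraries (0.63, adjusted p = 0.0564). Aim2, a sensor of DNA in the cytosol, stood at 1.18 to 3.28 CPM (median 2.44) without and 3.65 to 4.28 CPM (median 4.11) with ABX, without overlap, and rose by 0.73 ± 0.17 log2 units (adjusted p = 0.00401). Antimicrobial and stress genes of the epidermis went the other way in part, with 8 of 26 called lower and 2 higher (median -0.31, or 0.16 with the length and GC offset). Wfdc12, a protease inhibitor of keratinocytes, stood at 51.3 to 434 CPM (median 116) without ABX and 2.87 to 26.6 CPM (median 13.6) with it, with no overlap, and fell by 3.41 ± 0.55 log2 units (adjusted p = 0.000479). S100a7a, a psoriasin-like protein, and S100a8, a calprotectin chain of neutrophils and stressed keratinocytes, fell by 1.51 ± 0.27 (adjusted p = 0.000747) and 2.18 ± 0.57 (adjusted p = 0.01). S100a8 fell by 1.60 without no_induction libraries 011 and 012 (adjusted p = 0.0212). Il36g and Il1f10, epidermal cytokines of the interleukin 1 family, fell by 1.12 ± 0.18 (adjusted p = 0.000289) and 1.80 ± 0.38 (adjusted p = 0.0024). Among chemokines, Cxcl12, made by fibroblasts, and Ccl11, which draws eosinophils, lay above every no_induction library and rose by 0.66 ± 0.11 (adjusted p = 0.000465) and 1.04 ± 0.18 (adjusted p = 0.000485). Cxcl1, which draws neutrophils, rose by 1.41 ± 0.25 log2 units (adjusted p = 0.000607).

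Genes of the dermis rose in part. Of 35 genes of dermal matrix and signalling 19 were called higher and 1 lower (median 0.54), and 9 lay above every no_induction library in all ABX libraries (background 3.0%). Of 30 collagen and fibroblast genes 9 were called higher (15 with limma-voom) and 2 lower (median 0.22). edgeR called 5 of these 30 higher and 5 lower (median 0.1) on the 8 libraries numbered 001, 002, 003 and 005 in either group. Of the 35 genes of dermal matrix and signalling, 11 were called higher there and 1 lower (median 0.43). The mean log2(CPM + 1) of the collagen and fibroblast list was 7.768 to 8.254 with ABX. Without ABX it was 7.997 to 8.255 in libraries 001, 002, 003 and 005 and 7.388 to 7.702 in the others. Ccn2, connective tissue growth factor, stood at 39.1 to 73.3 CPM (median 44.6) without ABX and 102 to 219 CPM (median 160) with it. It rose by 1.56 ± 0.17 log2 units (adjusted p = 1.47e-05). Ccn3, of the same family, rose by 2.06 ± 0.30 log2 units (adjusted p = 0.000236), and Has2, the hyaluronan synthase, rose by 1.07 ± 0.13 log2 units (adjusted p = 2.77e-05). Ltbp2, a microfibril protein, stood at 4.18 to 9.73 CPM (median 6.56) without and 9.99 to 39.5 CPM (median 27.5) with ABX and rose by 1.96 ± 0.24 log2 units (adjusted p = 4.26e-05). Fgf10, a growth factor that fibroblasts give to epithelium, and Timp3, a matrix-bound protease inhibitor, rose by 0.90 ± 0.13 (adjusted p = 0.000103) and 0.76 ± 0.11 (adjusted p = 0.000132). These 6 genes showed no overlap.

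Eln, elastin, stood at 74.4 to 112 CPM (median 84.1) without ABX and 141 to 212 CPM (median 176) with it, did not overlap, and rose by 1.02 ± 0.10 log2 units (adjusted p = 5.99e-06). Lox, which cross-links elastin and collagen, and the platelet-derived growth factor receptors Pdgfra and Pdgfrb of fibroblasts and pericytes rose by 0.99 ± 0.19 (adjusted p = 0.0011), 1.01 ± 0.17 (adjusted p = 0.000414) and 0.82 ± 0.09 (adjusted p = 1.53e-05), all without overlap. With induction Eln changed by 1.10 (adjusted p = 0.00167) and Ltbp2 by 2.07 (adjusted p = 0.00133), and neither interaction was called, at -0.07 (adjusted p = 0.887) and -0.10 (adjusted p = 0.915). Igf2bp2, an RNA-binding protein that stabilises growth-related messages, stood at 1.08 to 2.44 CPM (median 1.28) without and 4.4 to 9.23 CPM (median 5.22) with ABX and rose by 1.96 ± 0.21 log2 units (adjusted p = 1.26e-05).

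Nerve and vessel lists had medians above 0 in the fit of all 15 libraries. Of 14 Schwann cell genes 8 were called higher and none lower (median 0.52), and of 20 endothelial genes 6 and none (median 0.36), or 13 without no_induction library 005 and 11 with limma-voom. On the 8 libraries numbered 001, 002, 003 and 005 in either group, edgeR called none of either list. The medians there were 0.32 for Schwann cell and 0.02 for endothelial genes. Cdh19, a cadherin of Schwann cells and their precursors, stood at 2.66 to 10.1 CPM (median 6.25) without ABX and 13 to 23.1 CPM (median 15.8) with it. It rose by 1.35 ± 0.22 log2 units (adjusted p = 0.000356) with no overlap. Prox1, the lymphatic factor, Sox17, of arteries, and Rgs5, of pericytes, rose by 0.90 ± 0.22 (adjusted p = 0.00541), 0.73 ± 0.17 (adjusted p = 0.00335) and 0.88 ± 0.24 (adjusted p = 0.0104).

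Hoxb13, a Hox gene of the tail end of the body, stood at 2.07 to 12.2 CPM (median 9.18) without ABX and 24.8 to 30.2 CPM (median 27.3) with it. The groups did not overlap, and it rose by 1.74 ± 0.26 log2 units (adjusted p = 0.000183). With induction it changed by 2.53 (adjusted p = 0.00181), and the interaction was -0.79 (adjusted p = 0.376). Among 26 positional Hox genes 3 were called higher and 5 lower, against 15.4% and 15.8% of all genes. Hoxc12, a posterior Hox gene, fell by 0.71 ± 0.15 log2 units (adjusted p = 0.00232), though not with the length and GC offset (-0.41, adjusted p = 0.0961), and its interaction was -0.72 (adjusted p = 0.0237). The place along the tail from which skin was taken is not given in the labels, and its part in these values was not tested.

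Of 20 pigment genes tested without induction 4 were called lower and 2 higher (median -0.26), against 15.8% and 15.4% of all genes. By limma-voom with quality weights 8 were called lower and 4 higher (median -0.46). With edgeR, leaving out ABX library 001, 003 or 005 or no_induction library 023 left 2 called lower. Pmel, which builds the melanosome's fibrils, stood at 17.6 to 39.2 CPM (median 27.2) without and 5.34 to 38.4 CPM (median 21.4) with ABX, a difference of -0.45 ± 0.28 (adjusted p = 0.243). Dct, an enzyme of melanin synthesis, and Tyr, the rate-limiting one, had differences of -0.39 ± 0.27 (adjusted p = 0.286) and -0.68 ± 0.35 (adjusted p = 0.143). With limma-voom Pmel, Tyr and Dct passed (-0.85, adjusted p = 0.0286; -1.10, adjusted p = 0.0195; -0.79, adjusted p = 0.0446). With edgeR, Tyr passed without ABX library 006 (-1.04, adjusted p = 0.0241) and with the length and GC offset (-1.14, adjusted p = 0.014). Mlana, a melanosome protein, fell by 1.59 ± 0.43 log2 units (adjusted p = 0.0112). Ednrb, the endothelin receptor that melanoblasts, vessels and glia use, stood at 15.2 to 33.4 CPM (median 23.4) without ABX and 39.7 to 52.3 CPM (median 44.4) with it, did not overlap, and rose by 0.97 ± 0.13 log2 units (adjusted p = 7.89e-05). With induction Pmel and Dct changed by 1.78 (adjusted p = 0.0144) and 1.53 (adjusted p = 0.0177), and their interactions were -2.22 (adjusted p = 0.0117) and -1.91 (adjusted p = 0.016).

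The series' title names oxidative stress, so genes of redox balance are given next. Over all genes 15.8% were called lower and 15.4% higher. Of 34 antioxidant enzymes 11 were called lower and 1 higher (median -0.10), or 6 lower without ABX libraries 002 and 004 and 6 higher with the length and GC offset. Of 38 NRF2 and glutathione genes 5 were lower and 4 higher, with 8 lower without no_induction library 005 and 3 without ABX library 001 or 002, with 11 higher under the offset, and with 9 lower and 9 higher in limma-voom. Txnrd1, thioredoxin reductase, stood at 129 to 187 CPM (median 163) without ABX and 83.6 to 107 CPM (median 94.2) with it. It fell by 0.75 ± 0.09 log2 units (adjusted p = 2.9e-05) with no overlap. Mt1, a metallothionein, fell by 0.62 ± 0.13 log2 units (adjusted p = 0.00194), and Msrb3, a methionine sulfoxide reductase, rose by 0.34 ± 0.08 log2 units (adjusted p = 0.0055). Catalase (Cat), the superoxide dismutases Sod1 and Sod2, and Nqo1, a quinone reductase and NRF2 target, had differences of 0.08 ± 0.10 (adjusted p = 0.558), 0.03 ± 0.12 (adjusted p = 0.861), -0.04 ± 0.06 (adjusted p = 0.615) and 0.10 ± 0.12 (adjusted p = 0.557). Sod2 passed with the length and GC offset (-0.23, adjusted p = 0.0226). With ABX in induced mice Cat and Sod1 changed by -0.56 (adjusted p = 0.00542) and -0.64 (adjusted p = 0.00126), and the interactions were 0.66 (adjusted p = 0.00691) and 0.69 (adjusted p = 0.00704).

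Of 24 genes that produce reactive oxygen 4 were called higher and 4 lower, against 15.4% and 15.8% of all genes. The number higher was 8 without no_induction library 005, 2 without ABX library 005 and 11 with limma-voom. Nox4, an oxidase of fibroblasts and vessels, stood at 0.748 to 2.88 CPM (median 1.95) without and 3 to 5.02 CPM (median 3.4) with ABX, did not overlap, and rose by 0.99 ± 0.23 log2 units (adjusted p = 0.00354). Cybb, the phagocyte oxidase, rose by 0.94 ± 0.22 log2 units (adjusted p = 0.00416). Aox4, an aldehyde oxidase of skin, fell by 1.26 ± 0.21 log2 units (adjusted p = 0.000392) with no overlap. Aldh3a1, an aldehyde dehydrogenase that the aryl hydrocarbon receptor induces, stood at 66.4 to 111 CPM (median 90.7) without ABX and 134 to 181 CPM (median 163) with it, and rose by 0.86 ± 0.11 log2 units (adjusted p = 3.78e-05). Cyp1a1, the receptor's classical target, had a difference of 0.42 ± 0.22 (adjusted p = 0.165), and 3 of the 9 genes of that list were called higher. Mgst1, a membrane glutathione transferase, rose by 0.59 ± 0.10 log2 units (adjusted p = 0.000354).

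Amino acid stress genes fell in part. Of 26 tested 11 were called lower and none higher (median -0.30). Cth, which makes cysteine from cystathionine, stood at 14.4 to 31.2 CPM (median 20.9) without ABX and 3.75 to 9.21 CPM (median 5.54) with it. It fell by 1.90 ± 0.22 log2 units (adjusted p = 2.18e-05) with no overlap. Chac1, which degrades glutathione, stood at 20.1 to 79.3 CPM (median 40.6) without and 5.02 to 19.5 CPM (median 9.32) with ABX and fell by 2.08 ± 0.37 log2 units (adjusted p = 0.000863). Atf5, a stress factor, and Aldh18a1, of proline synthesis, fell by 0.89 ± 0.11 (adjusted p = 4.03e-05) and 0.65 ± 0.10 (adjusted p = 0.000245), both below every no_induction library. In induced mice the changes of Cth and Chac1 were 0.41 (adjusted p = 0.29) and 1.09 (adjusted p = 0.032), and the interactions were -2.30 (adjusted p = 0.000398) and -3.16 (adjusted p = 0.000471).

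Nuclear genes of oxidative phosphorylation and ribosomal proteins had small falls that depended on the processing. In the former 31 of 74 were called lower and none higher (median -0.25), and in the latter 28 of 58 and none (median -0.33). With the length and GC offset 13 and 8 were called lower, 14 and 4 higher, and the medians were 0.04 and -0.06. Leaving out ABX library 001, 002 or 005 left 16, 17 and 17 of the 74 called lower, and for ribosomal proteins 9, 9 and 10, with 13 without ABX library 003 and 17 without no_induction library 011. Without no_induction libraries 011 and 012 together, 14 and 10 were called lower. Over all genes tested the median change went from -0.126 in the shortest of 5 equal classes of transcript length to 0.106 in the longest. Atp5d, of the ATP synthase, Cox5a, of cytochrome oxidase, and Rps28 of the small ribosomal subunit fell by 0.50 ± 0.11 (adjusted p = 0.00227), 0.45 ± 0.10 (adjusted p = 0.00235) and 0.72 ± 0.18 (adjusted p = 0.00774).

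Hormone-responsive and clock genes rose in part. Of 19 glucocorticoid-responsive genes 7 were called higher and 3 lower (median 0.53), and of 19 clock genes 9 and 2 (median 0.26). Of all genes 15.4% were called higher and 15.8% lower. On the 8 libraries whose numbers occur in both groups, edgeR called 3 glucocorticoid genes higher and 2 lower (median 0.57). Of the clock genes 3 were called higher there and 3 lower (median 0.24). At an unadjusted p under 0.05 these counts were 8 and 3 for glucocorticoid genes and 10 and 4 for clock genes. Nr3c1, the glucocorticoid receptor, stood at 106 to 187 CPM (median 133) without ABX and 191 to 254 CPM (median 222) with it. It rose by 0.65 ± 0.12 log2 units (adjusted p = 0.000715) with no overlap. Klf9, a target of the receptor, rose by 0.94 ± 0.16 log2 units (adjusted p = 0.00054), also without overlap. Sgk1, a kinase, and Tsc22d3, the leucine zipper protein GILZ, both induced by glucocorticoids, rose by 0.66 ± 0.10 (adjusted p = 0.000242) and 1.11 ± 0.24 (adjusted p = 0.00321). The clock repressors Per2 and Per3 stood at 9.28 to 23.3 CPM (median 15.5) and 23.4 to 39.4 CPM (median 34.2) without ABX and at 23.4 to 36.2 CPM (median 31.9) and 41.6 to 62.4 CPM (median 49.5) with it. Neither overlapped, and they rose by 0.92 ± 0.16 (adjusted p = 0.00043) and 0.65 ± 0.11 (adjusted p = 0.00039). Cry1, their partner, rose by 0.47 ± 0.10 log2 units (adjusted p = 0.00287), and Bhlhe40, a repressor in the same circuit, fell by 0.41 ± 0.08 log2 units (adjusted p = 0.000762). Sampling times are not given in the labels, and their part in these values was not tested.

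Of 26 immediate early and heat shock genes 5 were called higher and 2 lower, against 15.4% and 15.8% of all genes. The number higher was 8 without no_induction libraries 011 and 012. Nr4a1, an orphan nuclear receptor of the immediate early response, stood at 9.3 to 17.6 CPM (median 11.4) without ABX and 20.7 to 53.9 CPM (median 25.8) with it, did not overlap, and rose by 1.43 ± 0.20 log2 units (adjusted p = 0.000116). Klf2, a factor of flow-exposed endothelium and quiescent cells, rose by 1.05 ± 0.19 log2 units (adjusted p = 0.000613). In induced mice their changes were -0.65 (adjusted p = 0.245) and -0.67 (adjusted p = 0.0449), and the interactions 2.10 (adjusted p = 0.00346) and 1.74 (adjusted p = 0.000762). The interaction was called positive in 9 of 19 glucocorticoid genes and negative in 1.

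Across all genes, the ABX differences of uninduced and induced mice overlapped in part. Among 13875 genes tested in both, 4331 were called without and 1803 with induction, and 718 were called in both in the same direction (16.6% of the first and 39.8% of the second). Of these 228 were higher and 490 lower with ABX, and 74 genes were called in opposite directions, 55 of them lower without induction. Adipocyte genes were lower in both, with 27 of 37 lipid genes called lower with induction (median -1.21). In the plot of list levels by group, the fat, envelope, mast cell and dermal lists stood on the same side of the untreated group in both ABX groups, and the hair and interferon lists did not.

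**Figure D5:**
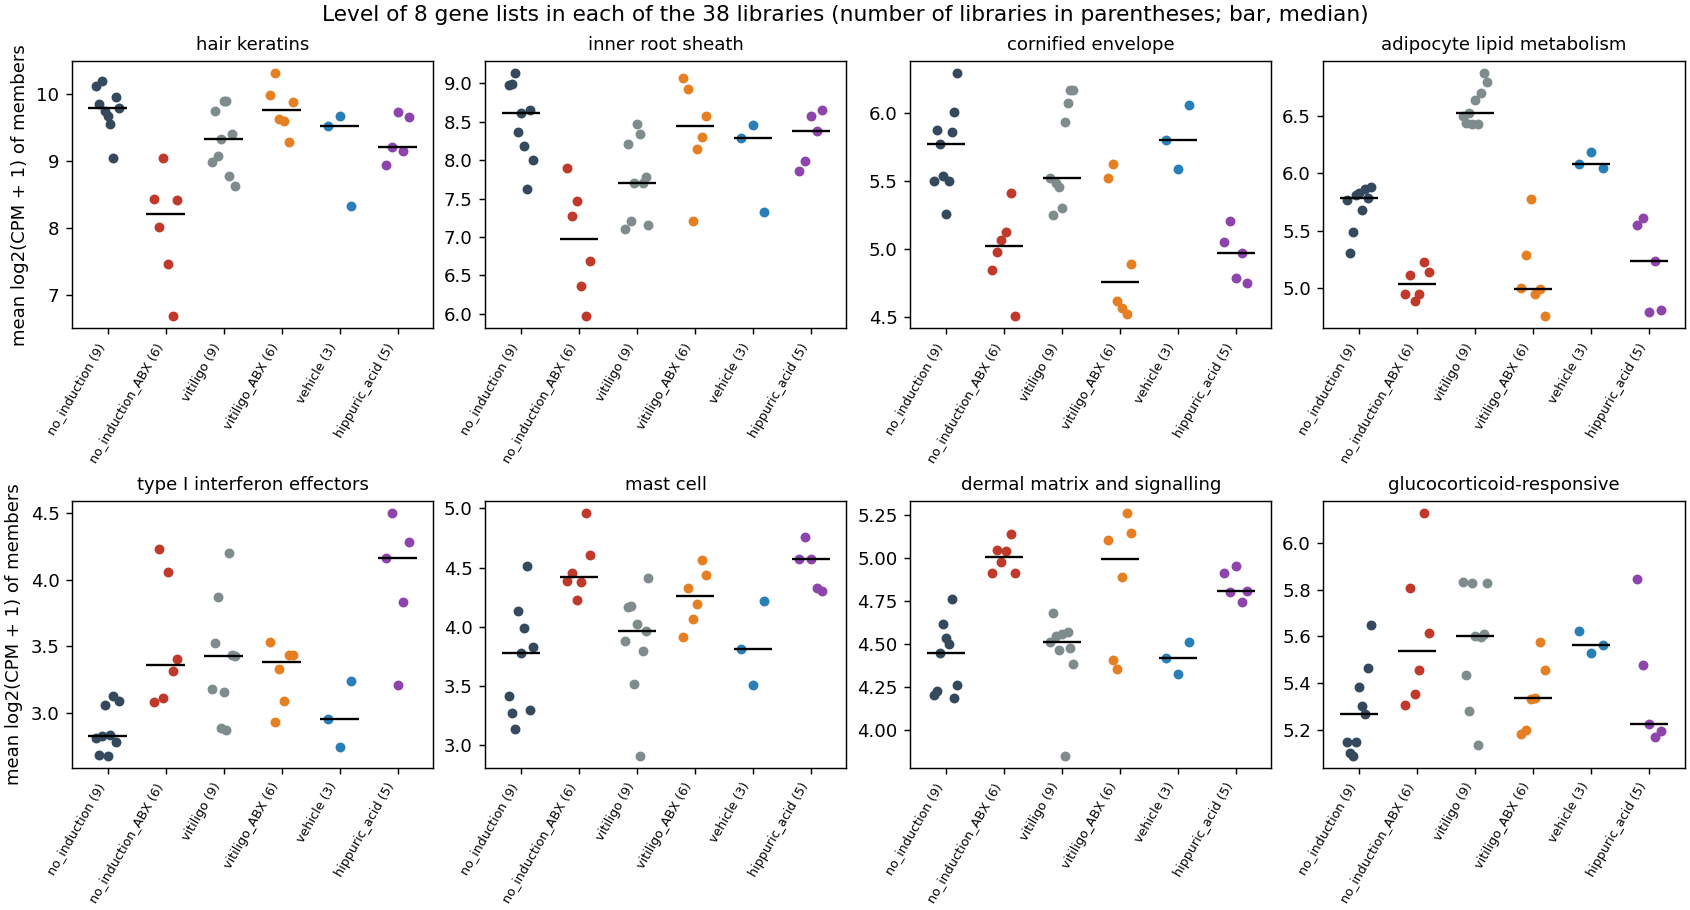
Mean log2(CPM + 1) of the members of 8 gene lists in each of the 38 libraries, by group (number of libraries in parentheses), with the group median as a bar. The median for dermal matrix and signalling was 5.01 in no_induction_ABX and 4.45 in no_induction, and for adipocyte lipid metabolism 5.03 and 5.78.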

How the data were processed

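RNA of mouse tail skin was extracted with Trizol, selected with oligo(dT) and sequenced from NEBNext Ultra libraries on a NovaSeq, per the labels' protocols. The values are estimated counts per gene for 38 libraries, as deposited by the authors in 1 table, with no scaling between libraries. Bowtie2 2.2.8, HISAT2, StringTie 1.3.1 and DESeq2 are named in the submitters' processing notes. The genome build, the counter and the use of strand are not given in the sources used here, so overlapping and antisense genes cannot be told apart.

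Of 19220 rows, 19218 genes were used, leaving out 1 incomplete row and 1 without a symbol. Values were rounded (3107 genes held a non-whole value, and no total changed by more than 20.1). Libraries were grouped by their labels, and genes were tested in R 4.3.3 with edgeR 4.0.16 (TMM scaling, filterByExpr, robust quasi-likelihood F test, two-sided, Benjamini-Hochberg adjusted p under 0.05, no fold limit). The standard error is the log2 change divided by the square root of F. Induced pairs and the interaction (4 groups, 30 libraries) were fitted the same way, each in its own fit. Depths of 16873157 to 25956404 counts leave the spread between libraries, not counting, as the main limit for all but low genes. In simulated counts on 13909 genes for the uninduced pair, the test recovered 62.7% of genes changed 1.5-fold, 92.5% of those changed 2-fold and 100% of those changed 4-fold, and 1.73% of calls were false. The simulated counts were drawn independently for each gene and library, with few genes changed and no likeness among libraries within a group. These rates therefore do not give the share of false calls in the real data.

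Members and gene lists (59 lists, 1381 genes in the table) were chosen with earlier results of these data known. Named genes were taken from the 12 largest rises and falls at a mean of 1 CPM or more, up to 6 genes a list with the smallest p, all genes of lists with 15 or fewer, a set list of markers, and the 6 smallest interaction p in each direction. No 2 libraries were near copies of each other. Alternatives were other size factors, other filters, DESeq2 1.42.0, limma 3.58.1 (voom), a 2-fold limit, 1 surrogate variable (sva 3.50.0), all 38 libraries, a block and each library left out. After the data were seen, fits without no_induction libraries 011 and 012, without ABX libraries 002 and 004, and with a transcript length and GC offset were added. Results on some items are not reported here.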

Additional observations from a re-analysis of the deposited data

Results flagged for a closer look

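In 12 of 320 groups of libraries examined, 1 library lay far from the others of its group for a named gene. Chance alone marks about 1 in 20 groups in this way. Of the ABX libraries, 006 held the lowest Krt10 (3640 CPM) and Sgk1 (147 CPM) of its group and the highest Mt1 (165 CPM) and Cyp2e1 (8.70 CPM). ABX library 002 held the highest Tapbp (177 CPM), 005 the highest Cma1 (296 CPM) and 001 the lowest Ccl8 (25.3 CPM). Among no_induction libraries, 011 held the highest Cers3 (86.3 CPM) and Tyr (25.6 CPM), and 012 the highest Klf2 (28.5 CPM). Library 005 of that group held the lowest Krt86 (353 CPM), and 002 the lowest Aim2 (1.18 CPM).

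For 69 named genes the ABX difference without induction differed from that with it in edgeR's quasi-likelihood test of the interaction, over 14310 genes. The values below are interactions on the log2 scale, where a negative value means a lower difference without induction.

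In the hair shaft the interaction was -2.87 for Krt40, -1.79 for Krt39, -2.49 for Krt86 and -2.32 for Krt34. It was -1.3 for Krtap3-1, -1.10 for Krtap3-3 and -1.53 for Krtap7-1. In the sheath and cuticle it was -2.50 for Krt71, -2.58 for Tchh, -2.58 for Padi3, -1.79 for S100a3 and -0.84 for Gata3. Among follicle regulators it was -1.58 for Foxn1, -1.25 for Hoxc13, -1.72 for Lef1, -0.74 for Wnt3, -0.95 for Wnt10a, -1.15 for Ovol1 and -0.72 for Hoxc12. Epidermal genes gave -0.79 for Tgm1, -0.91 for Tgm3, -1.94 for Il1f10, -2.34 for S100a7a, -0.74 for Prdm1, -1.17 for Gjb6, -1.92 for Psors1c2, -1.45 for Hephl1 and -1.10 for Gdpd5. All of these are negative, as are the pigment genes at -2.22 for Pmel and -1.91 for Dct. Of amino acid and redox genes, Cth gave -2.30, Chac1 -3.16, Aldh18a1 -0.84 and Txnrd1 -0.99.

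Interferon genes gave positive interactions, of 2.61 for Ifit1, 2.43 for Ifit3, 1.98 for Irf7, 1.24 for Ifih1, 2.19 for Zbp1, 2.71 for Oas3 and 2.79 for Apol9a. Further effectors gave 2.23 for Ifi44, 1.47 for Samd9l, 1.78 for Ddx60, 0.85 for Parp14, 1.5 for Gbp7, 1.92 for Gbp3 and 1.43 for Gbp2. Antigen presentation gave 0.66 for Tapbp, 0.71 for H2-T23 and 1.20 for B2m. Other immune genes gave 0.84 for Itgae, 0.68 for Cxcl12, 2.35 for Cxcl1, 1.03 for Aim2 and 1.63 for C3. The fat genes Rbp4 and Pparg gave 1.77 and 1.06. Redox and xenobiotic genes gave 0.66 for Cat, 0.69 for Sod1, 0.70 for Aldh3a1 and 0.62 for Mgst1. Hormone, clock and early response genes gave 0.88 for Nr3c1, 1.11 for Klf9, 0.62 for Sgk1, 1.73 for Tsc22d3, 0.67 for Per3, 2.10 for Nr4a1 and 1.74 for Klf2.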

How the results depend on the processing

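The uninduced comparison called 675 genes at 2-fold or more (254 higher, 421 lower), and 6527 (3340 higher) with limma-voom and quality weights. Without ABX libraries 002 and 004 it called 2604 (1285 higher, 1319 lower), and without any 1 library between 3431 (without ABX library 005) and 4732 (without no_induction library 005). limma-voom called 4437 genes for the interaction and 4393 for the induced pair. The causes were not tested.

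Replicate numbers 1, 2, 3 and 5 occur in both uninduced groups, but do not pair the libraries: same-numbered deviations correlated at -0.109, 0.17, -0.14 and 0.381, and the best match was the own number for 2 and 5 only. With the replicate block on these 8 libraries 1437 genes were called (632 higher, 805 lower), and without a block on the same libraries 1064 (446 higher, 618 lower). Krt5 then gave 0.09 with the block and 0.08 without, Cat -0.01 and -0.03, and Sod1 -0.07 and -0.08, each against its sign in all 15 libraries and none called. Of the genes examined, 115 kept direction and call with the block, 41 no longer passed and 3 changed sign. Without a block on the same 8 libraries these were 90, 66 and 3, and Ifit1, Isg15, Gbp7 and Krt10 were among those that no longer passed. On these libraries without a block edgeR called 3 of 14 hair keratins lower and 1 of 56 interferon effectors higher, while at an unadjusted p under 0.05 they were 5 and 28.

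Sod1 gave -0.05 with 1 surrogate variable and -0.04 to 0.09 without 1 library. Pparg gave -0.07 to 0.02 without 1 library and 0.07 with the length and GC offset.

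Of 160 genes examined, all 160 kept direction and call with DESeq2, RLE size factors, no filter and all 38 libraries, and 149 did without ABX libraries 002 and 004. These genes, 146 of them called, were picked in large part by small p or large change in the main fit. Their agreement therefore does not speak for genes in general. limma-voom ended the calls of Ifi44 (adjusted p = 0.0527) and C7 (adjusted p = 0.0585), and called B2m (adjusted p = 0.0156), Pmel (adjusted p = 0.0286), Tyr (adjusted p = 0.0195) and Dct (adjusted p = 0.0446). Of the values without 1 library, 2392 of 2400 were unchanged in direction and call. With the motif counted before the start only, 16 of 35 interferon promoters held it, against 2.98% of all. The protein identity of near-identical copies was not run.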
